A study of Homo sapiens with 2 samples.

Results

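The 7 mitochondrially encoded subunits of respiratory complex I, MT-ND1, MT-ND2, MT-ND3, MT-ND4, MT-ND4L, MT-ND5 and MT-ND6, were examined for binding by YB-1. A binding site was taken from the deposited tables of PAR-CLIP clusters wherever a cluster on the mitochondrial chromosome overlapped, on its own strand and by 1 base or more, an MT-ND gene of GENCODE release 44. This gave 26 of 1382 clusters in replicate Rep.A and 30 of 2011 clusters in replicate Rep.B, or 56 of 3393 in all. A Rep.A and a Rep.B cluster that overlapped were joined into a reproducible region, and 25 of the 1112 reproducible regions of the series lay in the MT-ND genes.

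Both libraries came from HEK293T, an established line of human embryonic kidney origin, of wild-type genotype. 4-thiouridine was supplied at 100 µM over 16 h before ultraviolet light of 365 nm was applied at a dose of 0.15 J/cm2, so that a crosslinked uridine is read as a T-to-C transition. RNA was trimmed with RNase T1, an enzyme that cuts after G, and was recovered with a polyclonal rat antibody raised against a peptide from the C-terminus of YB-1. The cells were opened with a non-ionic detergent and the labels give the molecule as cytoplasmic RNA. The series has 1 condition, 2 replicates and no control library, so the values below describe the clusters and carry no test. The tables give no expression, and the cell line could not be checked against marker genes.

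Complex I passes electrons from NADH to ubiquinone and pumps protons across the inner mitochondrial membrane. Its hydrophobic membrane arm is built around the MT-ND proteins, while the other subunits are made from nuclear genes in the cytosol and imported. The mitochondrial genome is read as long transcripts from both strands, which are cut into mRNAs, rRNAs and tRNAs, and MT-ND6 is the only mRNA made from the opposite strand. YB-1 is a cold shock domain protein that coats mRNA in the cytoplasm, and CATC and CACC are sequences it is known to prefer.

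The regions of highest coverage in each gene are shown first, since they carry most of the MT-ND signal. Mean coverage is the average number of reads over each base of a cluster. Mitochondrial sequences are RNA-strand sequences of the hg38 mitochondrial genome, which is identical to the sequence deposited for every cluster. All sequences are written with T for U, and CATC and CACC are in capitals except in NDUFA12.
MT-ND1, chrM:4154-4175, plus strand: accaactcataCACCtcctatg
MT-ND5, chrM:13370-13393, plus strand: cCATCATCcacaaccttaacaatg
MT-ND4L, chrM:10501-10521, plus strand: catttacCATCtcacttctag
MT-ND4L, chrM:10538-10558, plus strand: ctcaCACCtcatatcctccct
MT-ND5, chrM:12737-12756, plus strand: ctaacaacctattccaactg
MT-ND2, chrM:4492-4512, plus strand: tCATCtactctacCATCtttg
MT-ND4, chrM:11924-11948, plus strand: tcaaatatcactctcctacttacag
These stretches were rich in C and poor in G, and all but the second MT-ND4L region ended in G. The MT-ND5 region at 13370 held overlapping copies of CATC, and the MT-ND2 region held CATC at 2 separate places. The MT-ND5 region at 12737 and the MT-ND4 region held neither sequence.

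As with the other mitochondrial mRNAs and rRNAs, clusters in the MT-ND genes were recovered in both replicates more often than over the whole tables. Of the 26 Rep.A clusters, 25 were found again in Rep.B (96.2%, 95% Wilson interval 81.1 to 99.3), beside 80.5% of all Rep.A clusters. Of the 30 Rep.B clusters, 25 were found again in Rep.A (83.3%, interval 66.4 to 92.7), beside 55.5% of all Rep.B clusters. Both intervals lay above the value over all clusters, that of Rep.A by a small margin. The other mitochondrial mRNAs had 17 of 18 Rep.A clusters (94.4%) and 17 of 24 Rep.B clusters (70.8%) found again. The mitochondrial rRNAs had 7 of 7 and 9 of 11 (81.8%), so high recovery was not particular to the MT-ND genes. Of the mitochondrial tRNA clusters, 1 of 2 in Rep.A and 1 of 3 in Rep.B were found again. These intervals cover counting error only, and clusters of 1 library are not independent replicates. MT-ND clusters were also deeper than most, so recovery and coverage moved together and the part of coverage in the recovery was not tested.

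Reproducible regions were present in 5 of the 7 MT-ND genes. Over all 20046 protein-coding genes, 665 had a reproducible region, or 3.32%, while the other mitochondrial mRNAs had one in 5 of 6 genes (83.3%, beside 71.4% of the MT-ND genes). The 5 genes were MT-ND1, MT-ND2, MT-ND4, MT-ND4L and MT-ND5, and neither MT-ND3 nor MT-ND6 had a cluster in either replicate. The tables list called clusters alone, so a gene without one has no coverage value, and its level of bound RNA is not known.

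**Figure D1:**
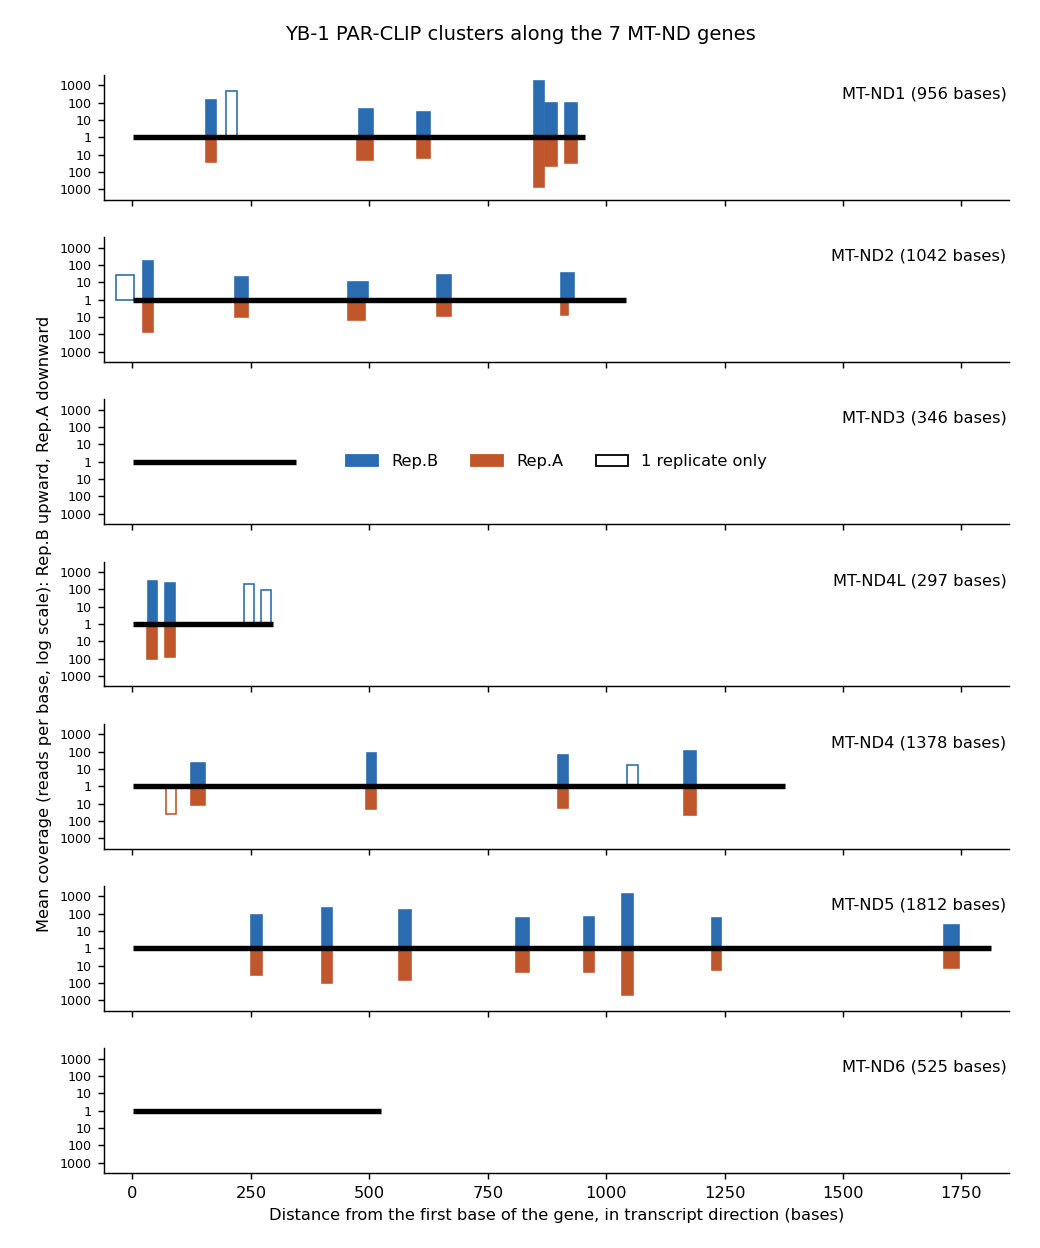
Clusters along the 7 MT-ND genes, drawn at their distance in bases from the first base of each gene, with Rep.B upward and Rep.A downward and bar height as mean coverage in reads per base on a log scale. Filled bars are clusters found in both replicates and open bars are the 1 Rep.A and 5 Rep.B clusters found in a single replicate. The black lines of MT-ND3 and MT-ND6 carry no bar.

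MT-ND1, which forms the junction of the membrane arm with the part of the enzyme that faces the matrix, had 6 reproducible regions over its 956 bases, or 6.28 per kb. Its region at chrM:4154-4175 had the highest coverage of all MT-ND regions, with 696 reads per base in Rep.A and 1790 in Rep.B. The next region, at chrM:4177-4201, had 46.6 reads in Rep.A against 92 in Rep.B. Adjacent fragments of the same mRNA, parted by 1 base, therefore differed strongly in coverage, in the same order in both replicates. Another region near this end of the gene, at chrM:4220-4244, had 28.8 and 100.6 reads, so that 3 of the 6 regions lay within the last 109 bases. The other 3 regions were spread over the rest of the gene, at bases 155, 474 and 602 from its start. Their coverage in Rep.A was 28, 20.4 and 16 reads, and in Rep.B 142, 45 and 28 reads. The region at base 155 had the largest log2 ratio of Rep.B to Rep.A coverage of all 25 regions, at 2.34. Coverage was not scaled for depth, and the median of this ratio over all 1112 reproducible regions was 1.38.

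More regions of MT-ND1 are shown to set the common type beside the exception.
MT-ND1, chrM:4177-4201, plus strand: aaaaacttcctaccactCACCctag
MT-ND1, chrM:4220-4244, plus strand: tctccatacccattacaatctccag
MT-ND1, chrM:3461-3481, plus strand: ccataaaactcttCACCaaag
MT-ND1, chrM:3908-3934, plus strand: ccgaaggggagtccgaactagtctcag
The last of these held 8 G bases before its final G, and 33.3% of its bases were G. The first 3 held no G before the final one.

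MT-ND2, a subunit related to ion antiporters that lies next to MT-ND4L in the membrane arm, had 5 reproducible regions over 1042 bases, or 4.80 per kb. Their median coverage was the lowest of the 5 genes, at 9.89 reads per base in Rep.A and 26 in Rep.B. The region near the start codon, at chrM:4492-4512 and covering codons 8 to 15, stood apart from the rest with 73 reads in Rep.A against 178 in Rep.B. The other 4 lay between 8 and 15 reads in Rep.A and between 10.2 and 34.7 reads in Rep.B. One of them, at chrM:4925-4966, was the only region of the 25 with less coverage in Rep.B (10.2 reads) than in Rep.A (15 reads).

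MT-ND4L, encoded by the shortest of these genes, and MT-ND4, a large antiporter-like subunit, are read from a shared mRNA in which their reading frames overlap by 7 bases. MT-ND4L had 2 reproducible regions over 297 bases, or 6.73 per kb. The first, at chrM:10501-10521, had 99.5 reads per base in Rep.A against 311 in Rep.B. The next, at chrM:10538-10558, had 79.6 and 244 reads. Both lay near the start of the reading frame, in codons 11 to 18 and 23 to 30. Their coverage on the mitochondrial genome stood among the highest 5 of the 25 regions in both replicates. The MT-ND4 frame, further along the same mRNA, had 4 regions over 1378 bases, or 2.90 per kb, the lowest density of the 5 bound genes. Its highest region, at chrM:11924-11948, had 45.8 reads in Rep.A against 102 in Rep.B. The other 3 regions of MT-ND4 had 11.6 to 21.5 reads in Rep.A and 22.3 to 82.7 reads in Rep.B, so every MT-ND4 region lay below the MT-ND4L pair in both replicates.

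MT-ND5, the longest of the genes and the most distal antiporter-like subunit, had 8 reproducible regions over 1812 bases, or 4.42 per kb. No cluster of MT-ND5 was seen in 1 replicate alone. The region at chrM:13370-13393, in codons 345 to 353, had 482 reads per base in Rep.A against 1402 in Rep.B, and was second of the 25 in both. The region at chrM:12737-12756 had 98 and 203 reads, and that at chrM:12900-12923 had 67.9 and 159.5 reads. The remaining 5 regions had 13 to 33.4 reads in Rep.A and 22 to 81.6 reads in Rep.B. The region at 13370 thus stood far above the other 7 in both replicates, with none of intermediate coverage.

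MT-ND3 and MT-ND6 differed in composition. MT-ND3, a small subunit at the base of the membrane arm, was 10.7% G over its 346 bases, close to the 9.50% to 12.1% of the 5 genes with regions. MT-ND6, a subunit of the same area, was 35.6% G and 7.05% C on its own strand, and held no CATC and no CACC. MT-ND3 held 3 CATC and 2 CACC sites. For MT-ND6, composition and the lack of clusters went together, and the part of composition was not tested.

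A few clusters were called in 1 replicate alone. They are shown because 1 of them reaches from MT-ND4L into MT-ND4 and because another is among the deepest in Rep.B.
MT-ND1, chrM:3505-3526, Rep.B alone: acCATCACCctctaCATCACCg
MT-ND4L, chrM:10705-10725, Rep.B alone: tctcaatctccaacacatatg
MT-ND4L, chrM:10741-10762, Rep.B alone: ataacctaaacctactccaatg
MT-ND4, chrM:10831-10851, Rep.A alone: aatcaacacaacCACCcacag
The MT-ND1 cluster had 447 reads per base in Rep.B, more than all but 2 of the MT-ND reproducible regions there, and held CATC and CACC at 2 places each, overlapping in both. The MT-ND4L clusters had 213 and 86.0 reads in Rep.B, and the latter shared its last 3 bases with the start of the MT-ND4 frame. With them MT-ND4L had 4 clusters in Rep.B against 2 in Rep.A. The MT-ND4 cluster had 41.8 reads in Rep.A. The other clusters of this kind, both in Rep.B, were one in MT-ND4 at chrM:11803-11825 with 16 reads, and one at chrM:4435-4472 with 25.3 reads that lay mostly in the tRNA gene MT-TM and shared 3 bases with the start of MT-ND2.

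The replicates ranked the 25 regions alike. Coverage in Rep.A ran from 8 to 696 reads per base with a median of 24, and in Rep.B from 10.2 to 1790 with a median of 81.6. The log2 ratio of Rep.B to Rep.A had a median of 1.29 with an SD of 0.56 over the 25 regions, and 24 of them were higher in Rep.B. Over all 1112 regions the median was 1.38 with an SD of 0.71, and coverage was not scaled for depth in either case. Of the 25 ratios, 24 lay within 1 log2 unit of the median of all regions, and the exception was the MT-ND2 region at chrM:4925-4966 at -0.56. Across the 25 regions Pearson's r of log2 coverage was 0.95 and Spearman's rho 0.945, beside 0.911 and 0.882 over the 1112 regions. Regions are parts of the same mRNAs and libraries, so these values describe the tables only. Both ends were identical to the base in 19 of the 25 MT-ND regions and in 796 of all 1112.

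**Figure D2:**
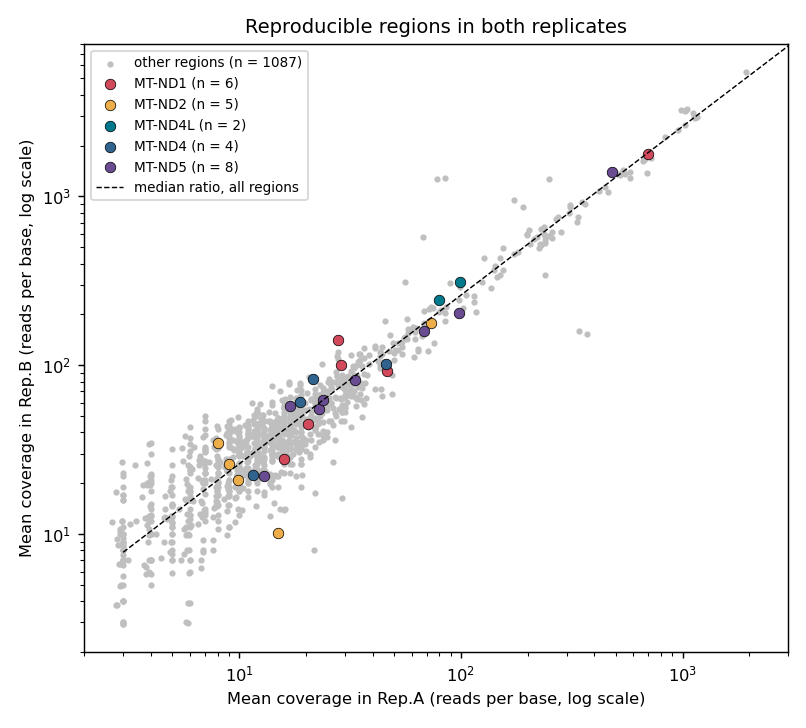
Mean coverage of each reproducible region in Rep.A (x axis) and Rep.B (y axis), in reads per base on log scales, with the 25 MT-ND regions coloured by gene over the other 1087 regions in grey. The dashed line is the median ratio of Rep.B to Rep.A over all regions, 2.60, and 1 MT-ND2 point lies well below it. The MT-ND1 and MT-ND5 points at the upper right are the regions at 4154 and 13370.

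MT-ND clusters were deeper than nuclear clusters. Their median coverage was 26 reads per base in Rep.A and 82.1 in Rep.B, beside 12 and 24 for clusters on nuclear chromosomes. In Rep.A 22 of 26, and in Rep.B 25 of 30, were at or above the median of the whole table. The MT-ND genes made up 1.88% of clusters and 4.16% of the read bases (coverage multiplied by width) in Rep.A, and 1.49% and 3.95% in Rep.B. Clusters of the other mitochondrial mRNAs, which encode subunits of cytochrome c oxidase, ATP synthase and complex III, had medians of 37.0 and 69.2 reads, above the MT-ND genes in Rep.A and below them in Rep.B. The order of the MT-ND genes and the other mitochondrial mRNAs thus changed with the replicate. Clusters of the mitochondrial rRNAs had medians of 56 and 60.6 reads. No measure of RNA abundance was used, so more bound RNA and more RNA per cell cannot be told apart.

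As groups, the MT-ND genes and the other mitochondrial mRNAs had a like density of regions, while single genes ranged widely. The MT-ND genes had 3.93 regions per kb, or 4.29 per kb without MT-ND6, which lies on the other strand. The other mitochondrial mRNAs had 17 regions, or 3.37 per kb, and the rRNAs MT-RNR1 and MT-RNR2 had 7, or 2.79 per kb. Among single genes, MT-CO3 with 5.10 per kb, MT-CO1 with 3.89, MT-ATP6 with 2.94 and MT-CO2 with 2.92 fell inside the 2.90 to 6.73 per kb of the bound MT-ND genes, and MT-CYB with 2.63 lay below it. MT-ATP8, the shortest mitochondrial mRNA frame, had no region, with 1 cluster of 11 reads in Rep.B.

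Within the MT-ND genes the signal was concentrated in 2 fragments. The MT-ND1 region at 4154 held 33.0% of the read bases of all MT-ND clusters in Rep.A and 27.5% in Rep.B. Together with the MT-ND5 region at 13370 the share was 57.9% and 52.1%. By gene, MT-ND1 held 40.7% and 41.9% of the read bases and MT-ND5 38.4% and 35.2%. MT-ND4L held 8.09% and 12.7%, MT-ND4 6.96% and 4.77%, and MT-ND2 5.82% and 5.38%. The order of MT-ND1 before MT-ND5 before MT-ND4L was the same in both replicates, while MT-ND4 and MT-ND2 changed places. That change rested on the Rep.B cluster at chrM:4435-4472, counted for MT-ND2 though it lay mostly in the tRNA gene MT-TM. Without it MT-ND4 came before MT-ND2 in both replicates. These shares and orders count clusters on the mitochondrial genome alone. Clusters on nuclear copies are left out, among them one of MT-ND4 sequence with 1194 reads per base in Rep.B. The order of the genes with such copies added was not examined.

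The nuclear protein-coding genes with the most regions in their exons had fewer than MT-ND1, MT-ND2 or MT-ND5. Nuclear genes of other types were not ranked. The tubulin gene TUBA1B, the translation elongation factor gene EEF2, TMBIM6, the translation initiation factor gene EIF4G2 and the splicing factor gene SRRM2 had 4 regions each. Their density was 1.12, 0.995, 0.647, 0.471 and 0.308 regions per kb of exon in that order, below the 2.90 per kb of MT-ND4. Of 565 nuclear protein-coding genes with an exonic region, 489 had 1 region, 60 had 2 and 16 had 3 or more. The 5 named genes were listed for their number of regions alone, so nuclear genes of higher density were not sought. Their exon lengths ran from 3.57 to 13.0 kb, against 1.378 kb for MT-ND4, so the densities rest on unlike lengths.

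Clusters were few in the nuclear part of complex I, about as rare as over all protein-coding genes. Of 37 nuclear subunit genes, 1 had a reproducible region (2.70%, beside 3.32% of all protein-coding genes). It was NDUFA12, an accessory subunit, with 115 reads per base in Rep.A and 256 in Rep.B at chr12:94971443-94971466 on the minus strand, within an exon. A second NDUFA12 cluster, at chr12:94971565-94971591, was present in Rep.B alone with 32 reads. The NDUFA12 region is shown because it shares the C-rich, A-rich make-up of the mitochondrial ones. That make-up is also common to nuclear regions of at most 60 bases, which were 35.9% C and 28.7% A.
NDUFA12, chr12:94971443-94971466, minus strand: atcccaccttcaacaccttacaag
Like most MT-ND regions it ended in G and held no other G. Of nuclear regions of at most 60 bases, 86.3% ended in G and 55.1% held no G before the last base. The NDUFA12 sequence also holds CACC, left here in lower case. None of 18 complex I assembly factor genes had a reproducible region, a count near the same background. None of 19 genes for mitochondrial RNA transcription and processing had a reproducible region, and in that list the mitochondrial transcription factor TFAM (7.76 reads) and the tRNA 3′ processing enzyme ELAC2 (3.94 reads, intron) had 1 cluster each in Rep.B.

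The ends of the MT-ND regions followed the G bases of the genes. The last base was G in 24 of 25 regions (96%), beside 86.3% of the 1056 nuclear regions of at most 60 bases. The base just before the region was G in 17 of 25 (68%), beside 46.6% of the nuclear regions. Both held in 16 of 25 (64%), beside 42.2%. Of the 17 regions of the other mitochondrial mRNAs, 76.5% ended in G, 52.9% followed a G and 35.3% did both. In that group 76.5% held no inner G. No G lay inside 23 of 25 MT-ND regions (92%), beside 55.1% of the nuclear regions. The MT-ND regions were 37.6% C and 5.56% G, and the plus-strand MT-ND genes as a whole 34% C and 10.5% G. G is the base after which RNase T1 cuts, so the effect of the digestion on G content and ends cannot be told apart from a preference of YB-1.

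CATC and CACC were searched on the RNA strand of each region. CATC was present in 9 of 25 MT-ND regions (36%, 95% Wilson interval 20.2 to 55.5) and CACC in 8 of 25 (32%, 17.2 to 51.6). Of the nuclear regions, 37.8% held CATC and 37.7% CACC, both inside those intervals. Either sequence was present in 15 MT-ND regions (60%) and in 61.1% of nuclear regions. The shares of MT-ND and nuclear regions with these sequences were thus close, within the counting error of 25 regions. The nuclear regions include 10 that consist wholly of MT-ND sequence. Of the 17 regions of the other mitochondrial mRNAs, 41.2% held CATC, 11.8% CACC and 52.9% either. In the plus-strand MT-ND genes as a whole CATC occurred 10.1 times and CACC 9.26 times per kb, on a strand rich in C and A. More regions that hold them are shown.
MT-ND5, chrM:13290-13309, plus strand: CATCaaccaaccaCACCtag
MT-ND5, chrM:12587-12610, plus strand: acttctccataatattCATCcctg
MT-ND5, chrM:13559-13579, plus strand: ccctatctattactctCATCg
MT-ND4, chrM:11252-11273, plus strand: atttacactcacaaCACCctag
MT-ND4, chrM:11658-11679, plus strand: ccattctCATCcaaaccccctg
CATC stood at the 5′ end of the first, and at or near the 3′ end of the second and the third, so the sites had no common place within the fragments. The first MT-ND5 region held both sequences, with 24 reads per base in Rep.A and 62 in Rep.B, far less than the region at 13370, which held CATC alone.

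To list the fragments that a complete digestion of the mRNAs would leave, the genes were cut in silico after every G. These are not the only fragments that could be observed, since some regions hold inner G bases. The MT-ND1 region at chrM:3908-3934, with 8 inner G bases, overlapped no fragment of at least 15 bases and is not counted here. This left 134 fragments of at least 15 bases with at least 1 T in the MT-ND genes, and 24 of them (17.9%) overlapped a reproducible region. In the other mitochondrial mRNAs 19 of 108 (17.6%) did so, a share close to that of the MT-ND genes. By gene, the share was 5 of 24 in MT-ND1, 5 of 21 in MT-ND2, 4 of 32 in MT-ND4, 2 of 7 in MT-ND4L and 8 of 38 in MT-ND5. MT-ND3 had 10 such fragments, the longest of 30 bases, and none overlapped a cluster. MT-ND6 had 2, the longest of 18 bases.

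Most fragments with a region were 20 to 29 bases long. None of 42 MT-ND fragments of 15 to 19 bases overlapped a region, against 9 of 32 of 20 to 24 bases and 10 of 28 of 25 to 29 bases. Of longer fragments, 2 of 16 at 30 to 39 bases and 3 of 16 at 40 to 79 bases did so. In the other mitochondrial mRNAs 2 of 51 fragments of 15 to 19 bases overlapped a region, so short fragments were rarely seen there as well. Over fragments of at least 20 bases the share was 24 of 92 in the MT-ND genes (26.1%) and 17 of 57 in the other mRNAs (29.8%).

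**Figure D3:**
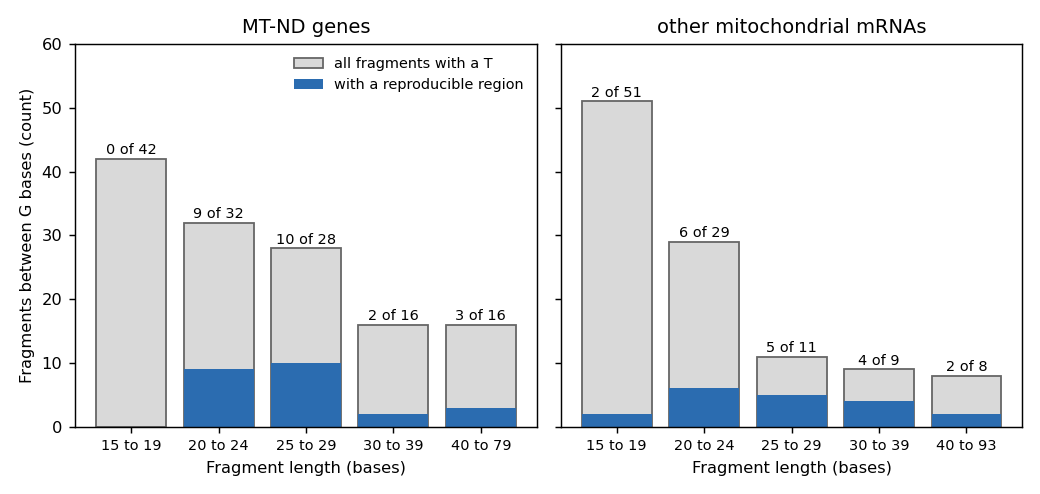
Fragments left by cutting after every G, by length in bases, in the MT-ND genes (left) and the other mitochondrial mRNAs (right). Grey bars count the fragments with at least 1 T and blue bars those that overlap a reproducible region. In the MT-ND genes no fragment under 20 bases carries a region.

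Among these fragments, those with a region held the YB-1 sequences more often. CATC or CACC was present in 17 of 24 MT-ND fragments with a region (70.8%, 95% Wilson interval 50.8 to 85.1) and in 36 of 110 without one (32.7%, 24.7 to 41.9). The sequences were counted over the whole fragment. In the fragments at chrM:5354-5400 and chrM:10864-10911 they lay outside the region, so these shares do not describe the regions alone. The fragments differed in length, with medians of 26 and 21 bases. Among fragments of at least 20 bases, with medians of 26 and 27 bases, the shares were 70.8% and 44.1% (30 of 68, interval 32.9 to 55.9), and the intervals overlapped. CATC and CACC each followed the same order there, at 41.7% against 25% and at 37.5% against 27.9%. In the other mitochondrial mRNAs the shares at this length were 58.8% and 50%, a smaller gap with intervals that overlap widely. There CATC was in 47.1% against 30%, while CACC ran the other way, at 23.5% of fragments with a region against 30% without one. Fragments of 1 gene are not independent of each other.

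T-to-C transitions were few in the MT-ND clusters. All 26 Rep.A clusters and 27 of the 30 Rep.B clusters rested on 1 high-confidence transition position. The 3 regions with 2 positions in Rep.B were the MT-ND4L region at 10501, the MT-ND4 region at 11924 and the MT-ND5 region at 13146. Over all clusters, 86.2% in Rep.A and 85.5% in Rep.B had 1 position. The relative log odds score, by which the cluster caller expresses its confidence per T base, was low in MT-ND clusters. Its median was 0.0747 in Rep.A and 0.133 in Rep.B, beside 0.150 and 0.192 over each table, and 8 of 26 and 5 of 30 clusters reached the table's median. Most MT-ND clusters were thus above the median of the table in coverage and below it in score. The MT-ND1 region at 4154, first in coverage, had scores of 0.0552 and 0.160, below the table medians. The MT-ND5 region at 13370 had 0.139 and 0.193. The highest score was that of the MT-ND5 region at 13290, at 0.422 and 0.484. When clusters under the median score of their replicate were left out, 4 MT-ND regions were found in place of 25, beside 427 in place of 1112 over the series. Clusters of the other mitochondrial mRNAs reached the table's median in 3 of 18 and 8 of 24 cases.

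Part of the MT-ND sequence is also present in the nuclear genome, as copies of mitochondrial DNA that were inserted there and are annotated as pseudogenes. The aligner assigned each read to 1 position, so reads from such stretches may be split over the mitochondrial gene and its copy, or placed on either. Of the 25 regions, 13 had no exact copy off the mitochondrial genome in the sequence of either cluster, and 12 had one. The 13 were 6 regions of MT-ND5, 3 of MT-ND1, 2 of MT-ND4 and 1 each of MT-ND2 and MT-ND4L. Each of the 5 bound genes thus had at least 1 region with no other exact copy on the reference chromosomes of hg38. The MT-ND5 region at 13370 was one of these regions. Copies with mismatches were not searched, and the alignment allowed mismatches, so reads shared with near copies cannot be told from these values.

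For 8 regions the copy carried a cluster in both replicates. The MT-ND1 region at 4154 had 696 reads per base on the mitochondrial genome and 693 on the pseudogene MTND1P23 on chromosome 1 in Rep.A, and 1790 and 1778 in Rep.B. The near equal values stood in both replicates, and with the copy added the fragment had 1389 and 3568 reads. It kept the highest coverage under either count, and the MT-ND5 region at 13370 the next. Over the 8 regions the ratio of mitochondrial to copy coverage ran from 0.468 to 1.85 in Rep.A and from 0.867 to 2.82 in Rep.B. The share of these reads that came from either locus cannot be told from the tables.

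**Figure D4:**
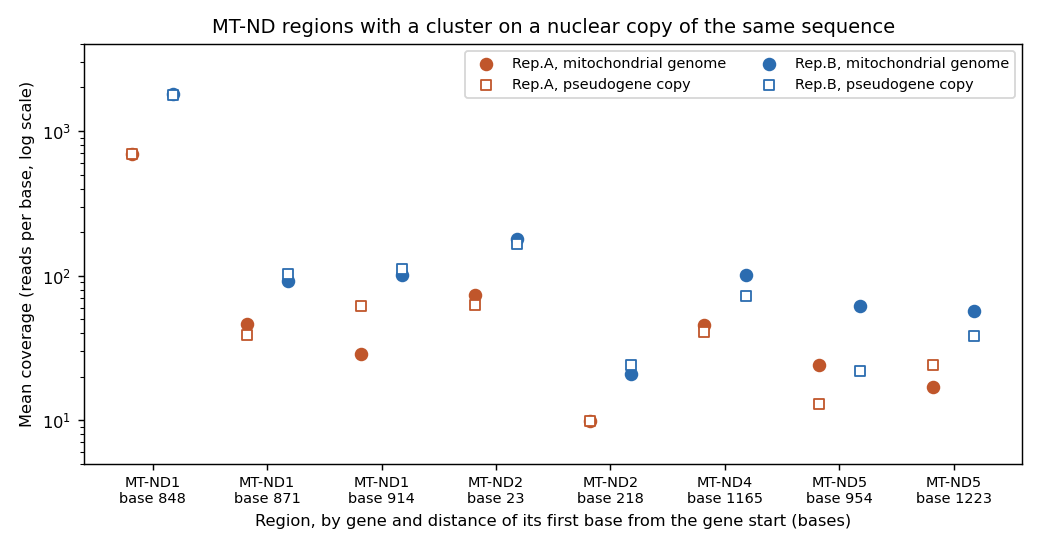
Mean coverage in reads per base (log scale) of the 8 MT-ND regions with a cluster on an exact nuclear copy in both replicates, on the mitochondrial genome (filled circles) and on the pseudogene copy (open squares), labelled by gene and by distance from the gene start. Circles and squares lie close together for MT-ND1 at base 848 and furthest apart for MT-ND1 at base 914 in Rep.A and MT-ND5 at base 954 in Rep.B.

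The assignment could also differ between replicates. The MT-ND4 sequence at 10831, called on the mitochondrial genome in Rep.A alone, had a cluster on the pseudogene MTND4P35 on chromosome 5 in both replicates, with 16.9 reads per base in Rep.A and 59.6 in Rep.B. A sequence that seemed limited to 1 replicate on the mitochondrial genome was therefore present in both when its copy was counted. A cluster of 1194 reads in Rep.B lay on the pseudogene MTND4P12 at chr5:134927055-134927075, on the minus strand. It is shown because its sequence equals MT-ND4 at chrM:11721-11741, where no mitochondrial cluster was called.
MTND4P12, Rep.B alone: ttaCATCctcattactattct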

How the data were processed

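Libraries were made from 2 independent replicates of crosslinked wild-type HEK293T cells, Rep.A and Rep.B, and form 1 group. According to the study's methods and the labels, the authors used cutadapt 2.10 for trimming and Bowtie 1.0.0 for alignment to hg38, which reported 1 position per read, and called clusters in each replicate with wavClusteR, keeping positions covered by at least 3 reads. The replicates were not pooled. The authors' deposited tables give, per cluster, the mean coverage (signal), the count of high-confidence transitions and of T bases, the crosslinking efficiency (a fraction) and log odds scores. Coverage is not scaled for depth, and the total number of reads per library was not used here. Reads carry no molecular identifiers.

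From these tables, clusters were assigned to genes of GENCODE release 44 by at least 1 shared base on the same strand, and all 1382 and 2011 cluster sequences were checked against hg38. Overlapping Rep.A and Rep.B clusters formed regions. Fragments were cut after each G, with a minimum length of 15 bases. Exact copies were searched on both strands of hg38, and off the mitochondrial genome clusters of at least 15 bases were matched to MT-ND sequence. Shares have 95% Wilson intervals. The overlap and digest steps were tested on simulated data. Python 3.11.15, pandas 2.3.3, numpy 2.4.6 and scipy 1.17.1 were used.

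The genes and lists were chosen with earlier results of these data known. Genes were named by rule: the MT-ND genes, the other mitochondrial genes, and complex I genes and pseudogenes of MT-ND sequence with a cluster. The rule also took the 5 nuclear protein-coding genes with most exonic regions, ties broken by regions per kb. TFAM and ELAC2 fall outside it and were named after their values were seen. Sequences are shown for the highest regions of each gene and for regions with CATC or CACC, and the others were chosen for what they show after their values were seen.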

Additional observations from a re-analysis of the deposited data

Results flagged for a closer look

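These signals lay outside the clusters of the MT-ND genes themselves. A cluster was called on the strand opposite MT-ND6, at chrM:14365-14410 on the plus strand, with a Rep.A coverage of 17.6 and a Rep.B coverage of 50.7 reads per base. Its ends were the same in both replicates, it rested on 1 transition position in each, and its sequence has no exact copy off the mitochondrial genome. MT-ND6 itself had no cluster on its own strand.

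On nuclear chromosomes, 10 reproducible regions consisted wholly of MT-ND sequence, with at least 3 reads per base in both replicates. They lay in the pseudogenes MTND1P23 and MTND2P28 on chromosome 1 and in MTND5P12, MTND4P35, MTND5P11 and MTND4P12 on chromosome 5. The lowest was the MTND4P12 region at chr5:134927574-134927596, with 3.83 reads in Rep.A against 20.1 in Rep.B, whose MT-ND4 counterpart at chrM:11200-11222 had no cluster in either replicate. The highest was the MTND1P23 region at chr1:629324-629345, with 693 and 1778 reads.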

How the results depend on the processing

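Of 38 alternative values for the summary results, 34 stayed near the reported one, meaning a count within 1.5 times, a share within the Wilson interval or a log2 ratio within 1 SD. The share with CATC, 36%, still ran from 33.3% to 50%. The 25 regions fell to 4, and the 5 genes with a region to 3, when clusters under the median relative log odds of their replicate were dropped, a filter that kept 427 of all 1112 regions (38.4%) and 16.0% of the MT-ND ones. The regions fell to 13 when only sequences with 1 exact copy in the genome were kept, and likewise to 13 under a filter on copies off the mitochondrial genome that was chosen after seeing the data. All 5 genes kept a region under both copy filters. Counts without 1 replicate were 26 for Rep.A clusters alone and 30 for Rep.B clusters alone, with 5 genes each. For MT-ND4L, the 2 regions became 4 clusters without Rep.A. For MT-ND2, 5 regions became 2 at a mean coverage of at least 10 reads. A minimum fragment length of 20 bases, also chosen after seeing the data, moved the share of MT-ND fragments with a region from 17.9% to 26.1%.

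No paired analysis was possible because both libraries belong to 1 group. With 2 libraries and no input or control, depth limits the description to called clusters, and the absence of a cluster in MT-ND3 and MT-ND6 is not a measured level of 0.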
